A study of Mus musculus with 6 samples.

Results

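The genes described here are 9 that handle amino acids in group 2 innate lymphoid cells (ILC2s): the transporters Slc7a8, Slc7a5, Slc3a2 and Slc1a5, the arginase Arg1, the polyamine enzymes Odc1, Srm and Sms, and the tryptophan hydroxylase Tph1. They were chosen by name, as listed genes of amino acid transport, arginine and polyamine metabolism and serotonin synthesis, and all 9 were present among the 17438 genes analysed. The samples were 3 libraries of ILC2s from CD48-deficient mice (KO; genotype B6.129S4-Cd48tm1Rsr/EpaulJ) and 3 libraries from wild-type mice (WT), all sorted from lung, treated with IL-33 and cultured before lysis. CD48 is a cell surface protein of the signalling lymphocyte activation molecule family, and the study's title places it in ILC2 function and airway hyperreactivity. The strain is labelled CB57BL/6 for both groups, and the labels carry no age, sex or duration of treatment. Complementary DNA was made from 10 pg of RNA per sample, and the labels do not say that the libraries of a group came from separate animals, so the p-values measure only how far these samples varied, and that variation may be technical. In bulk samples such as these, fewer cells of a type and less RNA per cell cannot be told apart.

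Large neutral amino acids such as leucine and tryptophan enter activated lymphocytes mainly through heterodimers of a light chain, SLC7A5 (LAT1) or SLC7A8 (LAT2), with the heavy chain SLC3A2 (CD98), while SLC1A5 (ASCT2) carries glutamine and other neutral amino acids. Arginase-1, which mouse lung ILC2s express, splits arginine into ornithine and urea, and ornithine decarboxylase (ODC1) turns ornithine into putrescine, which spermidine synthase (SRM) and spermine synthase (SMS) extend to spermidine and spermine. Tryptophan hydroxylase 1 starts serotonin synthesis from tryptophan and is induced in activated mouse ILC2s.

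Estimated counts per library summed to between 16135210 and 17600475 in KO and between 14928623 and 27450400 in WT. Cd48 was at 4.52, 5.59 and 4.4 CPM (counts scaled to a common library size) in KO and at 58.2, 46.6 and 41.6 CPM in WT, a log2 fold change of -3.33 (SE 0.20; edgeR adjusted p = 0.00285). All 14 ILC2 marker genes passed the filter on low counts, with summed levels of 14210 to 15023 CPM in KO and 12505 to 16212 CPM in WT. The overlap came from WT1 alone: WT2 and WT3 summed to 12878 and 12505 CPM, below every KO library. A large part of these sums was Il5, a type 2 cytokine gene, at 6841 to 7642 CPM in KO and at 10007, 6179 and 5597 CPM in WT. Without WT1, 2 of the 14 markers were called, both higher in KO. Of all 13643 tested genes 1.82% were called and 1.17% called higher. The 2 markers were Il2ra, a chain of the interleukin-2 receptor (log2 fold change 0.31, edgeR adjusted p = 0.0200), and Il5 (0.29, edgeR adjusted p = 0.0332). Gata3 (-0.23), Thy1 (-0.47), Areg (-0.20), Icos (-0.08) and Klrg1 (-0.03) had estimates below 0 and were not called. The remaining markers had estimates above 0 and were not called. The part of the markers in the changes of Slc7a8 and Tph1 was not tested. One WT library, WT1, stood apart from the other 5: transcripts of 6000 bases or more had a median difference of -0.78 (log2) from the mean of the other WT libraries, while those under 1000 bases had one of 0.28. WT1 lay outside the range of the other 5 libraries for 8 of the 9 genes, against 76.2% of all tested genes. Each comparison below is therefore given for all 6 libraries and for the 5 without WT1, the second being 3 KO against 2 WT libraries.

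With all 6 libraries, none of the 9 genes passed the threshold (edgeR quasi-likelihood test, adjusted p under 0.05), and with an unadjusted p under 0.05 the count was also 0 of 9, beside 918 of 13317 tested genes. Without WT1, an unadjusted p under 0.05 was reached by 4 of the 9 (Arg1, Slc7a5, Slc7a8 and Tph1), beside 1865 of 13643 tested genes. Over all genes, 4 of 13317 passed the adjusted threshold with all 6 libraries, or 0.0300%. With WT1 in the fit the estimates of these 9 genes had 95% intervals that all included 0. DESeq2 called 0.591% and limma-voom with sample quality weights 0.713% of the genes they tested, again with 0 of these 9. Without WT1, 2 of the 9 were called, both higher in KO, Slc7a8 and Tph1, where 1.82% of 13643 genes were called and 1.17% were called higher. Slc7a5 joined the called genes, lower in KO, under other settings without WT1: with length trends removed, where 1.69% of genes were called and 0.682% called lower, no other of the 9 was called, and with DESeq2, where 3.54% were called, it was called beside Slc7a8 and Tph1. The change of the 9 genes had a median of -0.05 (log2) with all 6 libraries and 0.10 without WT1, beside -0.00392 and 0.000476 over all tested genes. KO and WT values did not overlap for 2 of the 9 genes with all 6 libraries (Slc7a8 and Sms, both higher in KO), against 19.3% of all tested genes, 10.2% in that direction. Without WT1 they did not overlap for 6 of the 9, with Arg1, Slc7a8, Srm, Sms and Tph1 higher and Slc7a5 lower in KO, against 30.0% of tested genes, with 15.8% of tested genes higher and 14.3% lower.

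**Figure D1:**
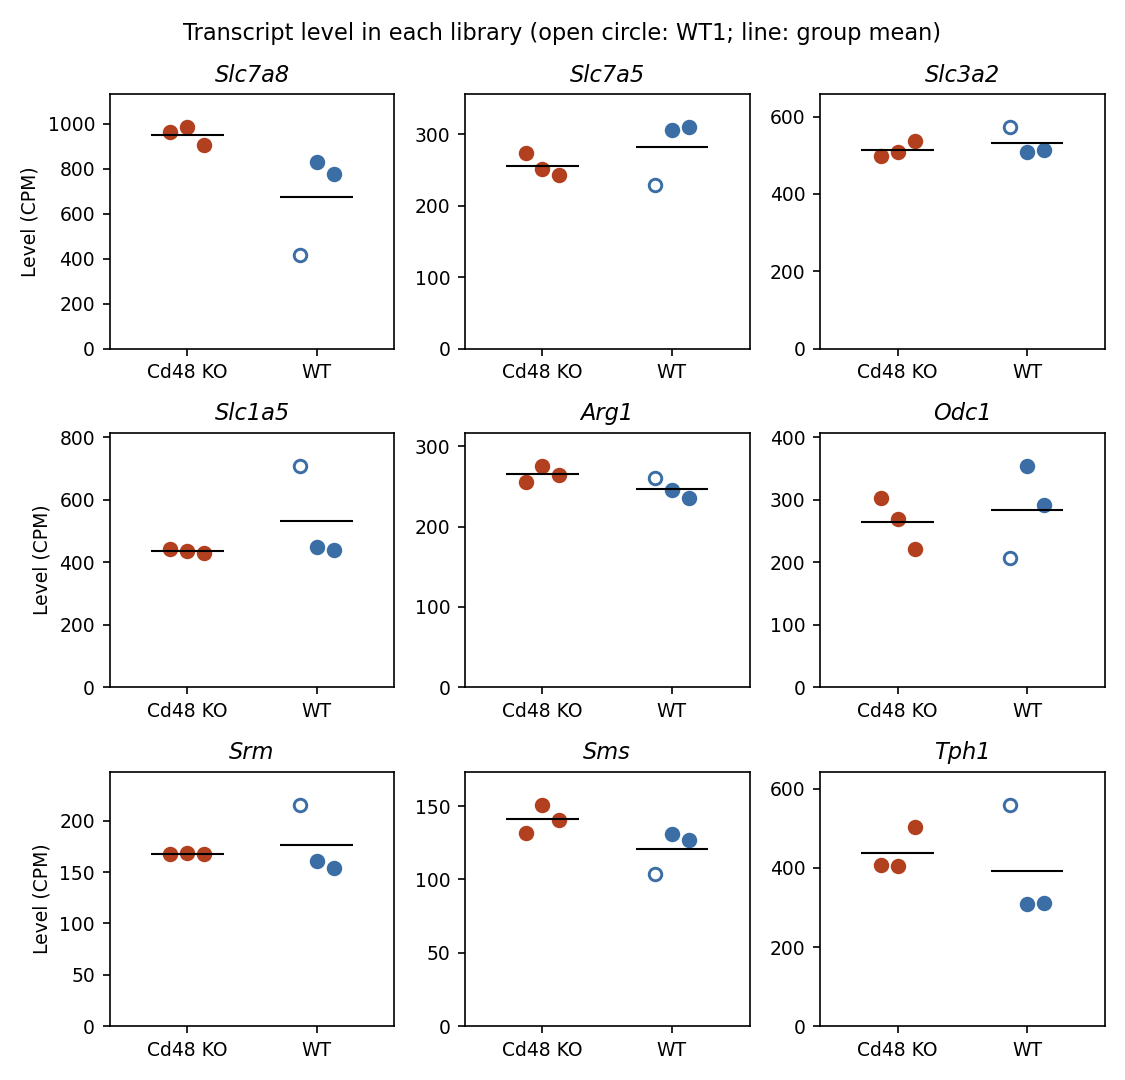
Level of each of the 9 genes in CPM (vertical axis, from 0) in every library, with KO left of WT, WT1 as an open circle and a line at each group mean. WT1 lies apart for most genes, and for Slc7a8 all 3 KO points, at 907 to 985 CPM, lie above all 3 WT points.

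Slc7a8 and Slc7a5 encode the alternative light chains for large neutral amino acids. Without WT1, Slc7a8 was 1.19-fold higher in KO and was called, while Slc7a5 had a fold change below 1 and was not called in edgeR with the same settings. Slc7a8, on chromosome 14 (GRCm38, 54722209 to 54781946, minus strand), was at 962, 985 and 907 CPM in KO and at 417, 828 and 775 CPM in WT. Every KO library was above every WT library, and WT1 was far below the other WT libraries. KO over WT, the log2 fold change was 0.50 with all 6 libraries (SE 0.25; 95% interval -0.10 to 1.09; edgeR adjusted p = 0.690) and 0.25 without WT1 (SE 0.05; 0.13 to 0.37; edgeR adjusted p = 0.0364). In the comparison without WT1 the call for Slc7a8 ended when KO2, KO3, WT2 or WT3 was also left out (edgeR adjusted p between 0.0667 and 0.237) and held only without KO1 (0.0444). It also ended, at an edgeR adjusted p of 0.0521 and a log2 fold change of 0.23, when each library's trend with transcript length was removed.

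Slc7a5, on chromosome 8 (121881150 to 121907694, minus strand; the predicted gene Gm20388 overlaps it on the other strand, so that reads of the pair may not be separable), was at 274, 252 and 243 CPM in KO and at 229, 306 and 310.1 CPM in WT. The KO values lay above WT1 and below WT2 and WT3, without overlap with either side. Its log2 fold change was -0.14 with all 6 libraries (SE 0.15; 95% interval -0.48 to 0.21; edgeR adjusted p = 0.737) and -0.26 without WT1 (SE 0.06; -0.40 to -0.13; edgeR adjusted p = 0.0577). With WT1 left out, Slc7a5 passed with the length trend removed (log2 fold change -0.28, edgeR adjusted p = 0.0335), with DESeq2 (adjusted p = 0.0174) and in edgeR when KO1 was also left out (adjusted p = 0.0213).

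The ratio of Slc7a8 to Slc7a5, each per kilobase of its longest annotated transcript, was 3.02, 3.36 and 3.22 in KO and 1.57, 2.33 and 2.15 in WT. All KO values exceeded all WT values, also with WT1 set aside, with means of 3.2 ± 0.17 in KO and 2.02 ± 0.40 in WT (SD, n = 3 each). A two-sided exact permutation test gave p = 0.1, the smallest that 3 against 3 allows, and 0.5 after adjustment over the 5 ratios computed. Leaving out each library in turn kept the log2 difference between 0.51 and 0.80. The ratio was chosen after the single genes' values were known.

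Slc3a2, the heavy chain that brings both light chains to the cell surface (chromosome 19, 8706882 to 8723369, minus strand), was at 499, 509 and 537 CPM in KO and at 573, 508 and 515 CPM in WT. WT1 was the highest library and the groups overlapped. Without WT1, the log2 fold change was 0.01 with a 95% interval of -0.11 to 0.13 (edgeR adjusted p = 0.957), and with all 6 libraries it was -0.05 (-0.29 to 0.20; edgeR adjusted p = 0.860). Its ratio to the sum of both light chains, per kilobase, was 0.566, 0.578 and 0.655 in KO and 1.22, 0.623 and 0.659 in WT.

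Slc1a5 (chromosome 7, 16781340 to 16798274, plus strand) was at 443, 438 and 431 CPM in KO and at 708, 449 and 440.2 CPM in WT. WT1 alone was high, and the other 2 WT libraries were close to the 3 KO libraries. For Slc1a5 the log2 fold change was -0.28 with all 6 libraries (SE 0.20; 95% interval -0.76 to 0.19; edgeR adjusted p = 0.693) and -0.02 without WT1 (SE 0.05; -0.13 to 0.09; edgeR adjusted p = 0.918).

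Arg1 (chromosome 10, 24915221 to 24927484, minus strand) varied little, at 256, 275 and 265 CPM in KO and 261, 245 and 235 CPM in WT. WT1 fell within the KO range, and the other 2 WT libraries lay below it. For Arg1 the log2 fold change was 0.10 with all 6 libraries (SE 0.10; 95% interval -0.14 to 0.34; edgeR adjusted p = 0.724) and 0.15 without WT1 (SE 0.06; 0.01 to 0.28; edgeR adjusted p = 0.310). Arg2, the mitochondrial arginase, stayed at or below 0.359 CPM in every library and did not pass the filter on low counts.

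The polyamine enzymes did not pass the threshold in either comparison. Odc1, the first enzyme of the pathway (chromosome 12, 17544794 to 17551505, plus strand), was at 304, 269 and 221 CPM in KO and at 207, 354 and 291 CPM in WT. The groups overlapped with and without WT1, and the log2 fold change without WT1 was -0.28 with a wide 95% interval of -0.66 to 0.09 (edgeR adjusted p = 0.502). With all 6 libraries its log2 fold change was -0.10 (-0.62 to 0.42; edgeR adjusted p = 0.857), and it had the other sign, 0.0871, without WT2. Its ratio to Oaz1, the antizyme that binds ODC1 and directs it to degradation, was 0.439, 0.369 and 0.294 per kilobase in KO and 0.187, 0.479 and 0.410 in WT. The WT range enclosed the KO range in that ratio.

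Srm, spermidine synthase (chromosome 4, 148591503 to 148594993, plus strand), was at 168, 168 and 167 CPM in KO and at 215, 160.5 and 154 CPM in WT. The KO libraries were nearly equal and stood between WT1 and the other 2 WT libraries. Its log2 fold change was -0.08 with all 6 libraries (95% interval -0.43 to 0.28; edgeR adjusted p = 0.850) and 0.10 without WT1 (-0.04 to 0.23; edgeR adjusted p = 0.577), so the sign differed between the comparisons.

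Sms, spermine synthase, is X-linked (157443855 to 157492287, minus strand) and was at 131, 151 and 140.4 CPM in KO and at 104, 131 and 127 CPM in WT. Each KO value was above each WT value, though KO1 and WT2 were almost equal. For Sms the log2 fold change was 0.22 with all 6 libraries (SE 0.13; 95% interval -0.09 to 0.54; edgeR adjusted p = 0.690) and 0.13 without WT1 (-0.04 to 0.30; edgeR adjusted p = 0.518). The Srm to Sms ratio per kilobase was 3.54, 3.10 and 3.31 in KO and 5.78, 3.40 and 3.37 in WT, and that of Arg1 to Odc1 was 1.26, 1.53 and 1.79 in KO and 1.88, 1.04 and 1.21 in WT.

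**Figure D2:**
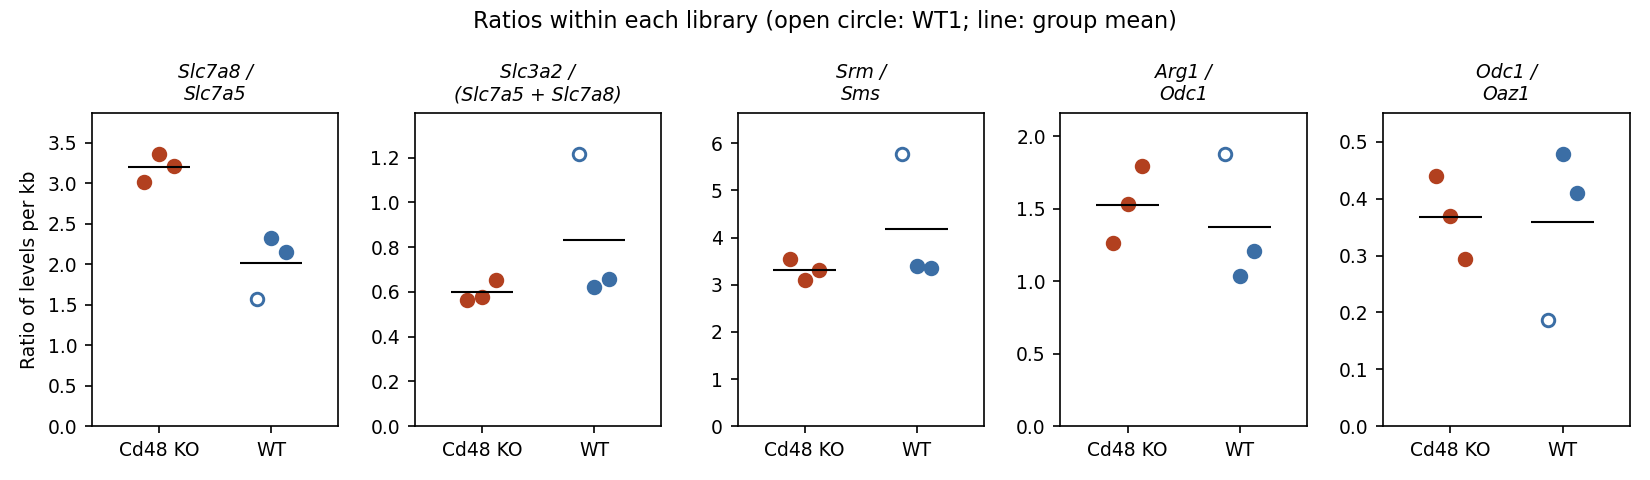
The 5 ratios of levels per kilobase within each library (vertical axes, from 0), with KO left of WT, WT1 as an open circle and a line at each group mean. The Slc7a8 to Slc7a5 ratio lies at 3.02 to 3.36 in KO, above 1.57 to 2.33 in WT, and the other 4 ratios overlap between the groups.

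Tph1, on chromosome 7 (46644641 to 46672537, minus strand), had the largest change of the 9 genes in the comparison without WT1. It was at 407, 405 and 504 CPM in KO and at 559.6, 309 and 310.4 CPM in WT. WT1 was the highest of all 6 libraries, and the other 2 WT libraries were the lowest. The log2 fold change was 0.16 with all 6 libraries (SE 0.26; 95% interval -0.45 to 0.77; edgeR adjusted p = 0.815) and 0.51 without WT1 (SE 0.10; 0.29 to 0.73; edgeR adjusted p = 0.0405), a fold of 1.42. In the comparison without WT1 the call for Tph1 ended when KO2, WT2 or WT3 was also left out (edgeR adjusted p between 0.0575 and 0.227) and held without KO1 (0.0157) or KO3 (0.0278). It ended also with the length trend removed (log2 fold change 0.48, edgeR adjusted p = 0.0970). limma-voom with quality weights on all 6 libraries, in which WT1 had a weight of 0.0919, gave Tph1 an adjusted p of 0.0996 and Slc7a8 one of 0.191.

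**Figure D3:**
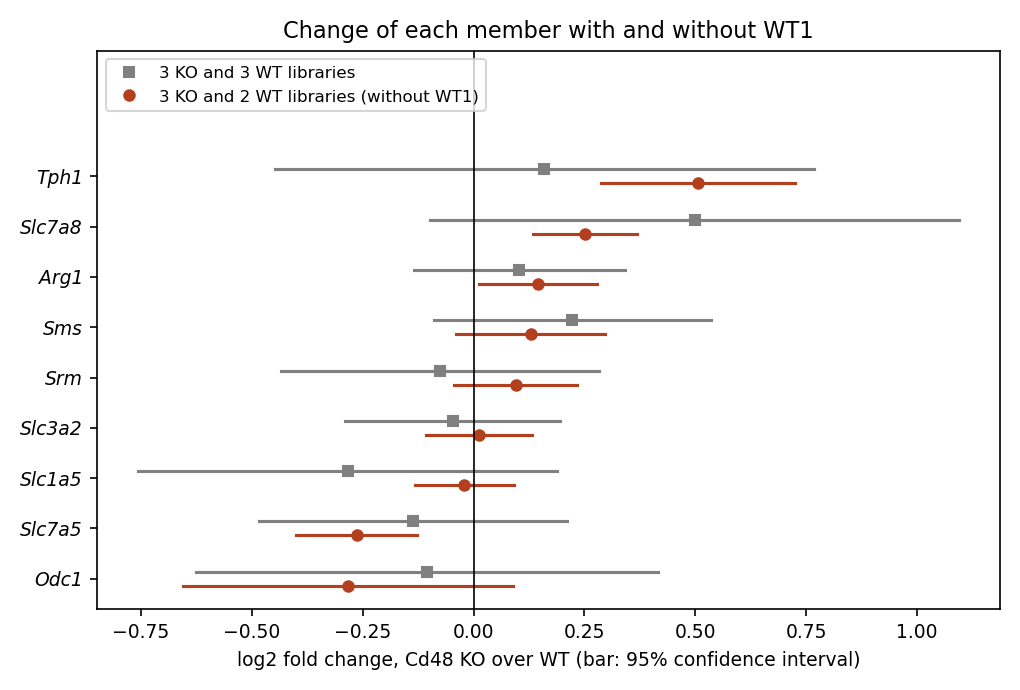
The log2 fold change, KO over WT, of each gene with its 95% confidence interval, for all 6 libraries (grey squares) and without WT1 (red circles). The intervals are wider with WT1 in the fit. Without it those of Arg1 (0.01 to 0.28), Slc7a8 (0.13 to 0.37) and Tph1 (0.29 to 0.73) lie above 0 and that of Slc7a5 (-0.40 to -0.13) lies below 0.

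The position of WT1 was compared with transcript length, since its long transcripts were under-represented. Slc7a8, whose longest transcript has 4084 bases, differed by -0.94 on the log2 scale in WT1 from the other WT libraries, and Tph1, with 4562 bases, by 0.85. The median gene of 4000 to 6000 bases differed by -0.32, so this pair of similar length deviated from its class in opposite directions. Slc1a5 (2807 bases) differed by 0.67 and Odc1 (2208 bases) by -0.63, where the median of genes of 2000 to 3000 bases was 0.11. Arg1 and Slc3a2 differed least, at 0.12 and 0.16. What sets WT1 apart was not tested.

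**Figure D4:**
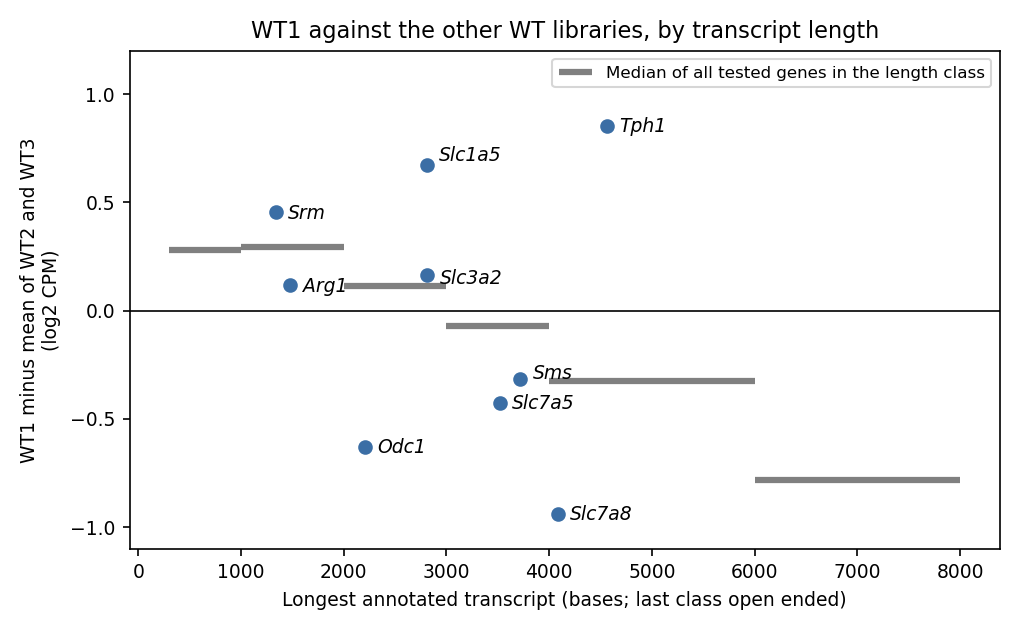
Log2 level in WT1 minus the mean of WT2 and WT3 (vertical axis) against the longest annotated transcript in bases (horizontal axis), with the 9 genes as points and the median of all tested genes in each length class as grey bars. The class medians run from 0.28 for the shortest to -0.78 for the longest transcripts, and Tph1 (0.85) and Slc7a8 (-0.94) lie on opposite sides of their class.

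The promoter windows of the 2 genes called without WT1 are shown so that their letters can be set beside the values. Of the 9 genes, 5 had a window (RefSeq, GRCm38.p6; 250 bases before to 50 after the start). Each is printed on the gene's own strand, with GC boxes (GGGCGG or its reverse complement CCGCCC) in capitals: Slc7a8 at chr14:54781837-54782136, and the upstream and downstream Tph1 starts at chr7:46672488-46672787 and chr7:46667328-46667627, all on the minus strand.
Slc7a8: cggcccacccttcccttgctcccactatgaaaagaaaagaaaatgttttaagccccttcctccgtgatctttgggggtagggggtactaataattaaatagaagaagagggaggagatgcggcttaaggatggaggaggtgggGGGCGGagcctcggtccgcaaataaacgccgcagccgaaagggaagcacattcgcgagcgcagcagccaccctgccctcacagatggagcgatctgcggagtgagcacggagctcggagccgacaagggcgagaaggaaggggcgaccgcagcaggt
Tph1 upstream start: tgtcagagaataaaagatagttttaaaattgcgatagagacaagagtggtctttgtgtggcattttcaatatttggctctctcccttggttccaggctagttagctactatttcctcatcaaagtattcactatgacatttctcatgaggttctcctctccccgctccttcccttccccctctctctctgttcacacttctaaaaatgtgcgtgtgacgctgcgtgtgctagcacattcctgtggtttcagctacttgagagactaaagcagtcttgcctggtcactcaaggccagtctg
Tph1 downstream start: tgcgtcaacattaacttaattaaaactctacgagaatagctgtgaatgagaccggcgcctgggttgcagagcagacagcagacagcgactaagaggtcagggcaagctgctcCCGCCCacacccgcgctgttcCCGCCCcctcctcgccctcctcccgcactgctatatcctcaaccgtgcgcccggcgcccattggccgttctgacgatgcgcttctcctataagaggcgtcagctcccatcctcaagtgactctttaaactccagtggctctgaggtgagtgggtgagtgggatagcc
The Slc7a8 window held 1 GC box, the downstream Tph1 window held 2 and the upstream one held 0, and 35.7% of all 32851 windows of the same length held at least 1. Neither the E-box CACGTG (7.15% of windows) nor TGATGNAA, the core of the amino acid response element (3.97% of windows), was found on either strand in these 3 windows. Of the 5 genes with a window, Sms had the E-box at its upstream start (chrX:157492238-157492537). The window of its downstream start (chrX:157491319-157491618) held none. The deposited gene counts do not tell the Tph1 starts apart.

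Per kilobase, the order of levels differed at the top between the groups. In KO, Slc7a8 was highest at a mean of 233 CPM per kilobase, followed by Slc3a2 (183), Arg1 (179.6), Slc1a5 (156), Srm (125), Odc1 (119.8), Tph1 (96.2), Slc7a5 (72.9) and Sms (37.9). Arg1 overlapped Slc3a2, and Odc1 overlapped Srm and Tph1, while other neighbours did not overlap. In WT the mean order was Slc1a5 (189.7), Slc3a2 (189), Arg1 (167), Slc7a8 (165), Srm (132), Odc1 (129), Tph1 (86.1), Slc7a5 (80.2) and Sms (32.5), and all neighbours overlapped except Slc3a2 with Arg1 and Slc7a5 with Sms. Over WT2 and WT3 alone Slc7a8 was again highest at 196 and Tph1, at 67.9, stood below Slc7a5, at 87.7.

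Other genes of these pathways were read from 6 lists holding 132 analysed genes, of which 115 passed the filter with all 6 libraries and 116 without WT1. In edgeR none was called in either comparison, where 0.0300% and 1.82% of all tested genes were. Their median log2 fold change was 0.04 with all 6 libraries and -0.01 without WT1, and the lists ranged from -0.19 to 0.20 and from -0.07 to 0.21. Levels below are group means over the 3 KO and 3 WT libraries.

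Among the 19 tested transporters outside the 9 genes, the most abundant were the glutamine and neutral amino acid carriers Slc38a10 (397 CPM in KO and 340.4 CPM in WT), Slc38a2 (289 and 208 CPM in KO and WT) and Slc38a1 (259.5 and 205 CPM in KO and WT). Slc38a2 was at 70.4 CPM in WT1 and between 263 and 292 CPM in the other 5 libraries. The arginine carrier Slc7a1 was at 74.3 CPM in KO and 63.9 CPM in WT, and Slc7a6, which also carries basic amino acids with SLC3A2, was at 95.6 CPM in KO and 94.4 CPM in WT. Slc43a1, a large neutral amino acid carrier named here after its values were seen, had 11, 15 and 17 counts in KO and 0, 2 and 0 in WT. It passed the filter on low counts only through KO, the group where it was higher, and it was not called (edgeR adjusted p = 0.644 with all 6 libraries and 0.0692 without WT1).

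In the arginine, urea cycle and proline list, 11 genes were tested with all 6 libraries and 12 without WT1, with 0 called. The proline and ornithine enzymes Aldh18a1 (156 CPM in KO and 153 CPM in WT) and Oat (156 CPM in KO and 128 CPM in WT) were among the most abundant. Ass1 and Asl, which rebuild arginine from citrulline, were at 28.02 and 60.7 CPM in KO and at 25.3 and 64.6 CPM in WT, and Nos2, the inducible nitric oxide synthase that competes for arginine, did not exceed 0.984 CPM in any library.

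All 22 polyamine regulation and turnover genes were tested, with 0 called. Eif5a, the protein that carries the spermidine-derived residue hypusine, was the most abundant at 1551 CPM in KO and 1962 CPM in WT, with 2658 CPM in WT1 and at most 1624 CPM elsewhere. Oaz1 was at 828 CPM in KO and 976 CPM in WT, and Azin1, the inhibitor of antizymes, at 181 CPM in KO and 123 CPM in WT, where WT1 had 56.4 CPM. The S-adenosylmethionine enzymes Mat2a (493 CPM in KO and 442 CPM in WT) and Amd1 (119.5 CPM in KO and 102 CPM in WT) supply the aminopropyl donor, and Sat1, which acetylates polyamines for export, was at 134 CPM in KO and 154 CPM in WT.

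In the glutamine, aspartate and serine list 20 genes were tested with 0 called, led by the serine enzyme Psat1 (319 CPM in KO and 343 CPM in WT), Glud1, glutamate dehydrogenase (276 CPM in KO and 308 CPM in WT), and Shmt2, a mitochondrial serine enzyme (287 CPM in KO and 289.7 CPM in WT). Asns, asparagine synthetase, was at 218 CPM in KO and 279.6 CPM in WT.

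The partners of Tph1 in serotonin synthesis were unevenly present. Ddc, the decarboxylase that makes serotonin from the product of TPH1, had 4, 5 and 13 counts in KO and 10, 0 and 4 counts in WT and did not pass the filter. Gch1 and Qdpr, which make and recycle the tetrahydrobiopterin cofactor, were at 62.0 and 82.7 CPM in KO and at 64.4 and 82.1 CPM in WT. The vesicular monoamine transporter Slc18a2, named after its values were seen, was at 8.0, 7.07 and 5.53 CPM in KO and at 4.68, 3.40 and 3.73 CPM in WT. Its groups did not overlap, against 19.3% of all tested genes, 10.2% in that direction. Slc18a2 was not called (edgeR adjusted p = 0.690 with all 6 libraries and 0.0898 without WT1). Maob, a monoamine-degrading oxidase also named after its values were seen, was at 2.08, 1.11 and 1.30 CPM in KO and at 7.19, 4.54 and 3.16 CPM in WT. DESeq2 on all 6 libraries, which called 0.591% of the genes it tested, called Maob lower in KO (log2 fold change -1.72, adjusted p = 0.0469). With edgeR it was not called (adjusted p = 0.683).

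In the amino acid sensing list, 32 genes were tested with 0 called. Its most abundant members were Atf4, the transcription factor of the amino acid response (177 CPM in KO and 164 CPM in WT), and the mTORC1 activators Rragc (151 CPM in KO and 171 CPM in WT) and Rheb (136 CPM in KO and 163 CPM in WT).

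**Figure D5:**
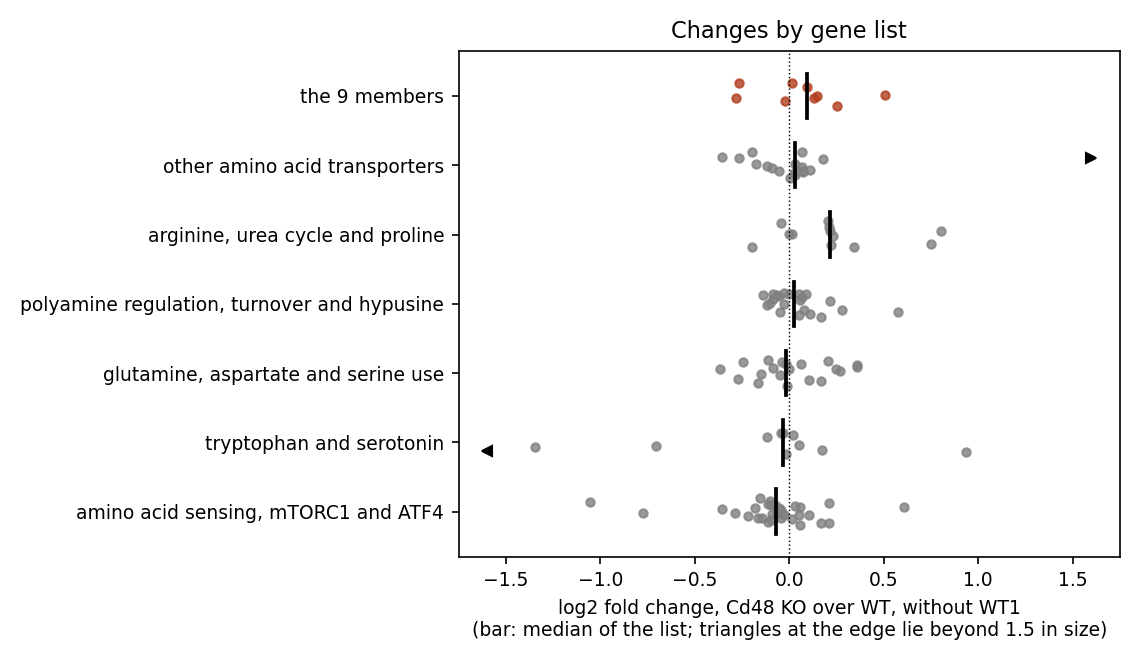
The log2 fold change, KO over WT, without WT1 (horizontal axis) of the 9 genes and of each tested gene of the 6 pathway lists, with a bar at the median of each row and triangles for genes beyond 1.5 in size. The medians lie between -0.07 and 0.21, with that of the 9 genes at 0.10.

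Some of these genes are also expressed by other cell types, such as macrophages (Arg1) and mast cells (Tph1), so their markers were read. Of the macrophage list, 8 of 12 markers were analysed, with summed levels of 15.3 to 127 CPM in KO and 55.9 to 248 CPM in WT, mostly Chil3, while Adgre1 did not exceed 2.03 CPM and Mrc1 was at 0 in all KO libraries. Of the mast cell and basophil list, 5 of 12 were analysed, with 276 to 284 CPM in KO and 123 to 287 CPM in WT, mostly Kit, while Cpa3 did not exceed 1.47 CPM and Hdc, the histamine enzyme, 1.22 CPM. The tryptase gene Tpsab1 was at 1.59, 5.72 and 6.27 CPM in KO and at 1.68, 1.13 and 1.72 CPM in WT (edgeR adjusted p = 0.270 without WT1). Cd200r3, a basophil and mast cell receptor, was at 1.65, 2.58 and 2.54 CPM in KO and at 7.33, 2.47 and 3.84 CPM in WT. Tpsab1 was highest in KO2 and KO3, and Cd200r3 and Cpa3, like Tph1, were highest in WT1. Kit, the most abundant of the list, went the other way, at 112 CPM in WT1 and 262 to 280 CPM in the other libraries. Hdc was at 0 CPM in WT1. The 9 epithelial markers summed to 10.8 to 24.8 CPM in KO and to 32.1 to 84.2 CPM in WT. The sums of 4 of 8 T cell markers were 16.9 to 19.6 CPM in KO and 28.7 to 43.5 CPM in WT. Neither list's sums overlapped, and of single tested genes 19.3% did not overlap. The largest epithelial marker differed between WT libraries: Epcam in WT1 (18.4 CPM), Sftpc in WT2 (23.3 CPM) and Scgb1a1 in WT3 (47.2 CPM). Scgb1a1 was higher in KO3 (12.9 CPM) than in WT1 (1.82 CPM). The T cell sum was mostly Cd3g. Without WT1, where 1.82% of tested genes were called, Cd3g (log2 fold change -0.92, edgeR adjusted p = 0.00690) and the epithelial marker Epcam (-0.83, 0.0347) were called lower in KO. Cd28, another T cell marker, had an estimate above 0 there (0.26, 0.799). B cell markers (2 of 6 analysed) summed to 12.2 to 17.2 CPM in KO and 14.1 to 19.97 CPM in WT, and those of fibroblasts and endothelium (3 of 9) to 40.1 to 41.9 CPM in KO and 29.1 to 40.9 CPM in WT. Eosinophil markers (3 of 6) did not exceed 7.12 CPM and the single neutrophil marker analysed (of 7) 0.307 CPM in any library. Their part in the differences above was not tested.

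The genes whose profile over the 6 libraries was most like that of a described gene were found by the root mean square difference of centred log2 CPM among 8676 genes. They were Atad2 (0.0212) and Slc2a1 (0.0453) for Slc7a8, Ccdc77 (0.0718) and Pibf1 (0.0726) for Tph1, and Dnm1l (0.0114) and Sdhaf2 (0.0197) for Arg1. Slc7a5 was closest to Sart1 (0.0397) and Bdh1 (0.0428), Slc3a2 to Pcbp3 (0.0206) and Hnrnpr (0.0208), and Slc1a5 to Unc119 (0.0145) and Man1b1 (0.0207). For the polyamine enzymes the closest profiles were Stx16 (0.0585) and Dnmt3a (0.0633) for Odc1, Tssc4 (0.0176) and Arid5a (0.0188) for Srm, and Srprb (0.0292) and Rnf44 (0.0298) for Sms. Among the 9 genes themselves the closest pair was Arg1 with Slc3a2 (0.0887), followed by Srm with Slc3a2 (0.105), over 6 libraries that include WT1. Of the 9, Srm was the closest to Slc1a5 (0.120), and Odc1 and Slc7a5 were closest to each other (0.142).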

How the data were processed

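Messenger RNA of 3 KO and 3 WT libraries was sequenced on a NextSeq 500, per the labels. The series' text speaks of duplicates, and 3 libraries per group were analysed here. The table deposited by the authors holds estimated counts per gene, of which 60.2% of the values above 0 were whole within 0.001. The submitters' processing notes name Partek 10.0, STAR 2.7.8, DESeq2 and the mm10 build, with no role given, and the annotation was not given in the sources used here. Whether counting used strand is not given either.

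Counts were rounded and tested with edgeR 4.0.16 (R 4.3.3) by the quasi-likelihood test with TMM scaling, robust fitting and filterByExpr (minimum count 10, minimum total 15), with Benjamini-Hochberg adjustment over all tested genes and a threshold of 0.05. Levels are CPM with TMM-scaled library sizes. DESeq2 1.42.0 and limma-voom (limma 3.58.1) with sample quality weights, other scalings and filters, a replicate block, removal of length trends (lowess span 0.3) and libraries left out were alternatives. The fits without WT1 with a length trend or DESeq2 were added after seeing the data. Scripts were tested on simulated counts. Lengths and positions came from GENCODE vM21, which matched 17022 of 17438 gene names (97.6%), and a length is that of the longest annotated transcript.

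The genes and lists were chosen with earlier results of these data known. The text names the 9 genes, Cd48, every called gene of a pathway list and otherwise its 3 most abundant genes, a set of named partners, the most abundant cell type markers and the 2 most similar profiles per gene. Some genes that the rule names are not reported here. Named outside this rule, after their values were seen, were Slc43a1, Slc18a2, Maob, Kmo, Eif5a2, Cebpb, Ass1, Asl and Nos2. The same holds for the markers Il2ra, Gata3, Thy1, Areg, Icos, Klrg1, Adgre1, Mrc1, Cpa3, Hdc, Tpsab1, Cd200r3 and Cd28. Depth limits genes of few counts, and intervals on counts cover counting error only. Replicate libraries differed by more than sampling noise (chi-square per gene 5.22 to 135), so none was merged.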

Additional observations from a re-analysis of the deposited data

How the results depend on the processing

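The number of genes called in KO against WT was 4 with all 6 libraries, 0 with a replicate block, 91 with DESeq2 and 95 with limma-voom. It was 0 to 248 when 1 library was left out, the highest without WT1. With WT1 left out it was 570 of 13643 tested genes with the replicate block and 231 of 13643 with the length trend removed. Also without WT1, it was 413 of 11679 with DESeq2 and 65 to 517 when a further KO library was left out. Whether the replicate numbers used by the block pair the libraries could not be decided. Of the 9 genes, 0 to 2 were called when 1 library was left out. With WT1 left out the number was 4 with the replicate block (Slc7a5, Slc7a8, Odc1 at -0.39 and Tph1) and 1 with the length trend removed (Slc7a5). It was 3 with DESeq2 (Slc7a5, Slc7a8 and Tph1) and 0 to 3 with a further KO library left out. Of the other pathway genes, 1 was called with DESeq2 (Maob), 1 without WT1 with the replicate block (Glud1, -0.38), and 0 to 3 without WT1 and a further library.

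Cd48 kept its direction, at -3.32 with the replicate block (edgeR adjusted p = 0.129) and at -3.45 to -3.18 when 1 library was left out (-3.30 to -3.11 with a further one besides WT1), but lost its call without KO1 (0.0754) or KO3 (0.0775). Slc3a2 had the other sign without WT1 (0.0122), also there with the block (0.0391), with the length trend removed (0.00300) and with DESeq2 (0.0111), and with limma-voom (0.00671). It ranged from -0.0825 to 0.0122 with 1 library left out and from -0.0274 to 0.0391 with a further one. Srm had the other sign with the length trend removed (0.0605), without WT1 (0.0951), there with the block (0.10), the length trend removed (0.13) and DESeq2 (0.0945), and with limma-voom (0.0754). It ranged from -0.16 to 0.0951 with 1 library left out and from 0.0595 to 0.12 with a further one. Odc1 ranged from -0.28 to 0.0871 with 1 library left out and from -0.42 to -0.14 with a further one besides WT1. The cause of these changes was not tested.

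Between libraries of the same replicate number, correlations of the deviations from the group means were -0.0461, -0.0356 and -0.00911. Of these, 0 of 6 libraries correlated best with its own number. The group means included WT1, which stood apart, so these correlations cannot decide whether the replicate numbers pair the libraries. With 3 libraries per group, exact permutation tests cannot go below p = 0.1. The biological coefficient of variation was 0.258 with WT1 and 0.109 without it. With WT1 left out it was 0.0902 with the replicate block, and 0.103 without the block when KO1 was also left out.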

Other observations

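Kmo, which turns kynurenine toward the nicotinamide pathway and so uses tryptophan by another route than TPH1, was at 0.550, 0 and 0.226 CPM in KO and at 0.768, 1.87 and 1.72 CPM in WT. Every KO library was below every WT library, at low levels. Kmo passed the filter on low counts only through WT, the group where it was higher. It was not called (edgeR adjusted p = 0.690 with all 6 libraries and 0.0931 without WT1). Kmo lies on chromosome 1 (175620381 to 175662116, plus strand), the chromosome of Cd48 (171682009 to 171705258, plus strand). Fh1 overlaps Kmo on the other strand. The part of sequence linked to the altered Cd48 gene, or of reads from Fh1, in the Kmo values was not tested. Eif5a2, the less abundant paralogue of Eif5a, was at 20.8, 15.9 and 19.1 CPM in KO and at 4.61, 11.1 and 13.7 CPM in WT, again without overlap. It was not called (edgeR adjusted p = 0.690 with all 6 libraries and 0.123 without WT1). Kmo and Eif5a2 are named here after their values were seen, and 19.3% of all tested genes were without overlap with all 6 libraries. Cebpb, a transcription factor of the amino acid response list, was at 62.3 CPM in WT1 and at most 4.81 CPM in each of the other 5 libraries.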
